A study of Mus musculus with 5 samples.

Results

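The genes described here are 9 receptors for leukocyte attractants: the chemokine receptor genes Cxcr4, Ccr1, Ccr2, Ccr7 and Cx3cr1, the atypical receptor gene Ccrl2, the formyl peptide receptor genes Fpr1 and Fpr2, and Cmklr1, the receptor for the plasma protein chemerin. They were taken by symbol from a table of 13339 genes, and all 9 were found once. Transcripts were measured by RNA sequencing in macrophages that the labels mark as wild type, grown from the bone marrow of 8-week-old C57BL/6 mice during 5 days with the growth factor M-CSF. Macrophages in the later groups had received lipopolysaccharide (LPS, a component of bacterial walls sensed by TLR4) at 100 ng/ml for 4, 8, 12 or 24 h, and the group at 0 h is the baseline. Each time point was 1 library, so there was no test between times, and every difference below compares a pair of libraries. The samples hold no time-matched cells without LPS, so hours in culture and hours in LPS cannot be told apart.

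Receptors of this family span the membrane several times and mostly signal through inhibitory G proteins, which drive directed migration, and they are then switched off by receptor kinases and arrestins. Cxcr4 holds leukocytes in the bone marrow through its ligand Cxcl12. Ccr2 takes monocytes out of the marrow, and Ccr1 and Cx3cr1 guide monocytes and macrophages in tissue. Ccr7 directs cells to lymph nodes. Fpr1 and Fpr2 sense formylated peptides, which bacteria and mitochondria release. Ccrl2 binds chemerin without the usual signalling and can present it to cells that carry Cmklr1.

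Values are FPKM (fragments by transcript length and library total), so levels of different genes are compared per length. Differences are on the log2(FPKM + 1) scale, where the folds of low genes come out too small, and folds are ratios of FPKM. The threshold for calling a gene higher or lower was a 2-fold difference on that scale. Counting intervals are 95% Poisson intervals from a depth of 18.8 to 19.2 M reads (megareads) per library, estimated from the steps between low values, and they cover counting error only. Shares of all genes are over the 9795 genes with a mean of at least 1 FPKM. Of the 9 receptors 8 were over this filter, and Cx3cr1, with a mean of 0.95 FPKM, was below it and was still counted among the 9.

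The libraries carried macrophage transcripts at every time. All 12 macrophage markers were listed, with Csf1r between 200 and 636 FPKM, Adgre1 between 340 and 967 and Cd68 between 824 and 1896, whereas Lyz2 stood at only 19.1 to 37.5. One protocol field in the labels speaks of dendritic cells. Flt3 and Zbtb46, markers of conventional dendritic cells, stood at most at 0.53 and 0.25 FPKM. Of the 12 dendritic cell markers with values, however, 6 were over the filter. Among these Itgax was at 44.0 FPKM (0 h) and 4.65 (24 h), and Relb at 16.4 (0 h) and 28.1 (24 h). Lymphoid markers summed to 2.33 to 12.3 FPKM, highest at 0 h. Against 0 h the median gene had a log2 difference of -0.70 (4 h), -0.49 (8 h), -0.35 (12 h) and -0.11 (24 h). Receptor differences are therefore also given after centring on the median gene, and after removing the trend by transcript length. Of genes at least 2-fold apart from 0 h, 24.3% (4 h), 29.4% (8 h), 36.4% (12 h) and 43.7% (24 h) were higher as deposited. After centring these shares were 61.6% (4 h), 54.7% (8 h), 56.1% (12 h) and 50.6% (24 h), and once the length trend was taken out 62.5% (4 h), 59.0% (8 h), 62.4% (12 h) and 55.9% (24 h). This is bulk RNA, so fewer cells of a kind and less RNA per cell cannot be told apart.

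Promoter windows from RefSeq (build GRCm38.p6), from 250 bases before to 50 bases after an annotated start site, were matched for 8 of the 9 genes (all but Ccr7), in 10 windows. Windows are printed 5′ to 3′ on the gene's strand for the receptor highest at 0 h (Cxcr4), the receptor highest at 4 h (Ccrl2) and the neighbours with the largest folds (Fpr1 and Fpr2). Capitals mark the match to the kappaB consensus that 1 of the 3 Ccrl2 windows held.
Cxcr4, minus strand of chr1:128592250-128592549: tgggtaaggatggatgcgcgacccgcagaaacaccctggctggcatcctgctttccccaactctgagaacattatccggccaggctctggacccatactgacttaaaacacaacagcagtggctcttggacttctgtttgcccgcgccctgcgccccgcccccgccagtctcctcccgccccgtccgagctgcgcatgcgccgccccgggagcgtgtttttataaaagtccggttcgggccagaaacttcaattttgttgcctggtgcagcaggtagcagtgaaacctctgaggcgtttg
Ccrl2, minus strand of chr9:111057469-111057768: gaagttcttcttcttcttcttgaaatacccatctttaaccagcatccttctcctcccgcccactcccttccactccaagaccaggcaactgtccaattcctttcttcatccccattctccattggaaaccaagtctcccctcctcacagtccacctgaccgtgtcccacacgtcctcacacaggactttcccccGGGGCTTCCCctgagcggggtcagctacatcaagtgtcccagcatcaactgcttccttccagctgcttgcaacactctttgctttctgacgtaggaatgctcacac
Fpr1, minus strand of chr17:17883890-17884189: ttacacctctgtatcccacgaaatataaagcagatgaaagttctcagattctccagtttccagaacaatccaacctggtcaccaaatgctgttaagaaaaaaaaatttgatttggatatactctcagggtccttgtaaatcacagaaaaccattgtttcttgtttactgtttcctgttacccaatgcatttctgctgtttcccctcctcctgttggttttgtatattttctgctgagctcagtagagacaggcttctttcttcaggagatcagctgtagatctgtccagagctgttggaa
Fpr2, plus strand of chr17:17887574-17887873: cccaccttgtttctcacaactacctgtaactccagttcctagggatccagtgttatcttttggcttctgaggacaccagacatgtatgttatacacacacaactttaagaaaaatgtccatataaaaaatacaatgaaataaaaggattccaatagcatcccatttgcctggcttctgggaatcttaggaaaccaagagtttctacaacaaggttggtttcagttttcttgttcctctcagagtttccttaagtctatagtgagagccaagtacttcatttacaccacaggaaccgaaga

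Both strands of all 10 windows were searched for the kappaB consensus bound by NF-kappaB, the core GAAANNGAA of the interferon-stimulated response element, and the core GAGGAAGT bound by PU.1. The match in the Ccrl2 window began 56 bases before its start site. Ccr1 had a kappaB match that began 74 bases before its start site, and Ccr2 had a match to the interferon response core that began 86 bases before it. The other windows, those of Cxcr4, Fpr1, Fpr2, Cx3cr1 and Cmklr1 and the other two of Ccrl2, held none of the 3 motifs. Across all 32851 RefSeq windows of this length, 8.46% held the kappaB consensus, 8.56% the interferon response core and 3.20% the PU.1 core. Across the 13590 windows of genes with FPKM values these shares were 10.5%, 7.47% and 3.36%. A match is a run of letters and was not tested for binding.

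At 4 h the make-up of these receptor transcripts was turned over. Ccrl2, Fpr1, Fpr2 and Ccr7 were higher by at least 2-fold than in the 0 h library, while Cxcr4, Ccr2 and Cx3cr1 were at least 2-fold lower. That is 4 of 9 higher and 3 of 9 lower, against 12.2% of all genes higher and 38.1% lower. The 3 of 9 lower thus lay near the share of all genes as deposited. Ccr1 (-0.96) and Cmklr1 (0.25) stayed within 2-fold. Cx3cr1 was close to the threshold, with a log2 difference of -1.02. Centred on the median gene it differed by -0.33, and with the length trend removed by -0.55, so that only Cxcr4 and Ccr2 counted as lower on those scales.

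From 8 h on Cmklr1 joined the higher receptors. At 8 h 5 of 9 were higher and 2 lower, against 12.0% and 28.9% of all genes. At 12 h the counts were again 5 higher and 2 lower, against 12.3% and 21.5% of all genes. At 24 h they were 5 and 2, against 11.3% and 14.5%. After centring, the shares of all genes higher and lower were 21.5% and 13.4% at 4 h, 18.0% and 14.9% at 8 h, 16.5% and 12.9% at 12 h, and 12.6% and 12.3% at 24 h. The 2 of 9 receptors lower at 8 h thus lay below the share of all genes as deposited and above it after centring. The 2 of 9 lower at 12 h lay near the share as deposited and above it after centring. At 8, 12 and 24 h the higher receptors were Ccrl2, Fpr1, Fpr2, Ccr7 and Cmklr1 and the lower ones Cxcr4 and Ccr2. Ccr1 was just under the threshold at 24 h (0.997), and passed it with the length trend removed (1.13) and after centring. The comparisons with 0 h share the 0 h library. The receptors were chosen with earlier results of these data known, so counts beside the shares of all genes describe this chosen set only.

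**Figure D1:**
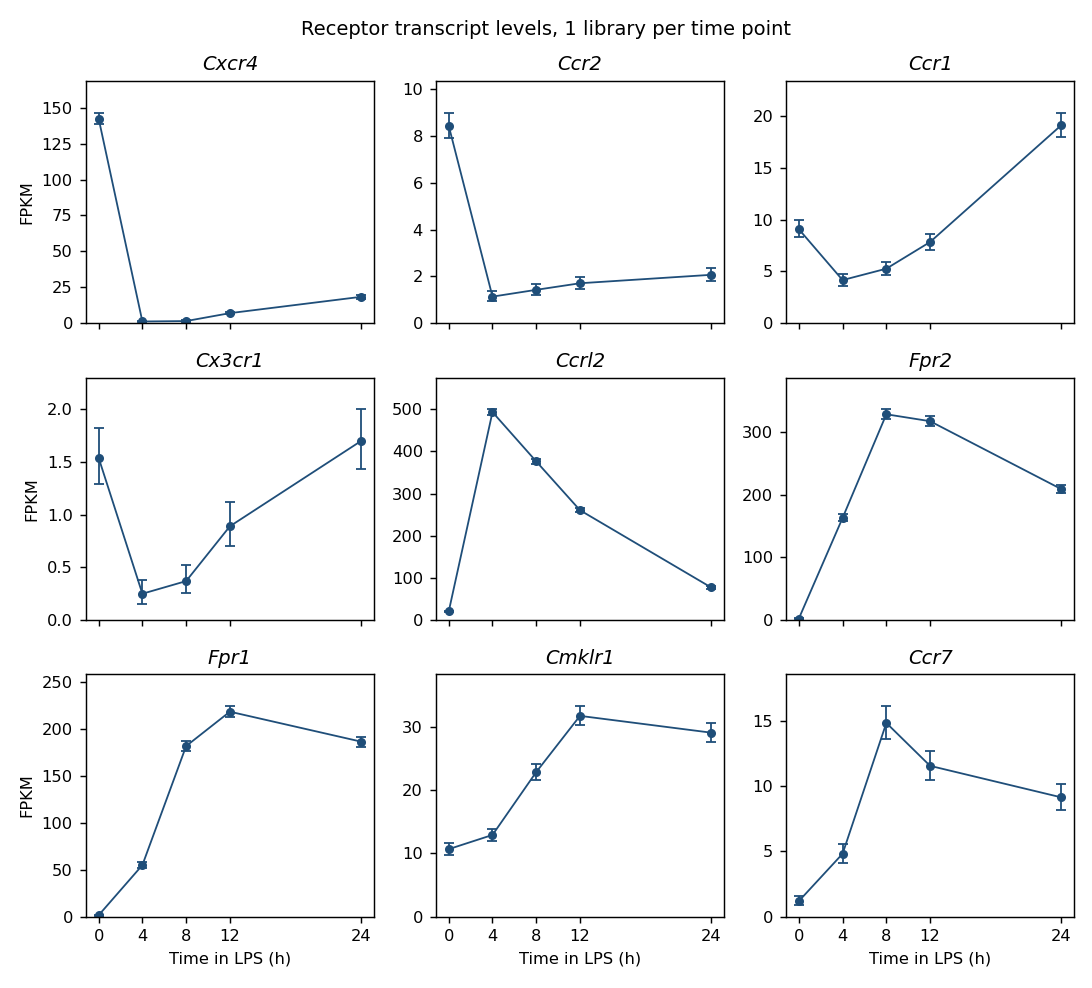
FPKM of each receptor (vertical axes, each with its own range from 0) against hours in LPS, 1 library per point, with bars for the 95% counting interval. Cxcr4 and Ccr2 are high at 0 h, Ccrl2 has its maximum of 493 FPKM at 4 h, and Fpr1 and Fpr2 stand between 55.0 and 328 FPKM in the 4 libraries with LPS.

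Cxcr4 (Entrez gene 12767; chromosome 1, 128588199 to 128592299, with all coordinates on GRCm38) had the largest negative difference of the 9. It stood at 142 FPKM (0 h), 1.31 (4 h), 1.60 (8 h), 7.10 (12 h) and 18.5 (24 h). The 4 libraries with LPS were thus all below the 0 h library, with the minimum at 4 h and a partial regain afterwards. The 4 h value, about 44 reads, had a counting interval of 0.95 to 1.76 FPKM, and 0 h was 109 times as high (80.8 to 150 by counting). By rank it stood at percentile 36.8 of the 13339 listed genes at 4 h, against percentile 96.3 at 0 h. The level at 8 h was 1.22 times that at 4 h, with a counting interval of 0.81 to 1.86 that includes no difference. It was 4.44 times as high at 12 h as at 8 h, and 2.60 times as high at 24 h as at 12 h. At 24 h it had reached percentile 74.6, and its FPKM was still 7.72 times as high at 0 h as at 24 h.

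The ligand Cxcl12 stood at 0.30 to 0.72 FPKM over the 5 libraries. Mif, a cytokine that also binds Cxcr4, was at 154 FPKM (0 h), 55.9 (4 h), 147 (8 h), 280 (12 h) and 323 (24 h). Mif was thus lowest at 4 h as well, but it ended above its 0 h level.

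Ccr2 (gene 12772; chromosome 9, 124101918 to 124109140) was the other receptor that stayed low. It had 8.42 FPKM (0 h), 1.14 (4 h), 1.43 (8 h), 1.71 (12 h) and 2.07 (24 h). The 0 h library was 7.39 times as high as the 4 h library (6.11 to 8.99 by counting) and 4.07 times as high as the 24 h library (3.51 to 4.73). Each step between neighbouring later libraries had a counting interval that included no difference. The 24 h library was 1.82 times as high as the 4 h library (1.45 to 2.28), but after centring that log2 difference was 0.03. In rank, Ccr2 was at percentile 33.7 at 24 h against percentile 56.8 at 0 h.

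Ligands of Ccr2 were far higher after LPS. Ccl2 was at 401 FPKM (4 h) and 452 (24 h), against 4.25 at 0 h. Ccl7 was at 168 and 176 FPKM at these times, against 2.17 at 0 h, and Ccl12 at 97.4 and 54.2, against 0.11. Ligand and receptor transcripts thus stood on opposite sides of their 0 h levels, although among the libraries with LPS Ccr2, Ccl2 and Ccl7 were each highest at 24 h. Markers of monocytes, the cells best known for Ccr2, were all 8 listed. Their summed level was 94.8 FPKM (4 h), 101 (8 h), 93.9 (12 h) and 76.6 (24 h), against 52.9 at 0 h. At 24 h 4 of the 8 passed the 2-fold threshold as higher and 2 as lower, beside 11.3% and 14.5% of all genes. Among the higher ones was Ly6c2 with 46.2 FPKM against 9.12. The lower ones were Chil3 with 5.39 against 30.8 and F13a1 with 2.77 against 6.98. The part of such cells in the Ccr2 values was not tested.

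Ccr1 (gene 12768; chromosome 9, 123962126 to 123968692) had a dip and a late high. It was at 9.07 FPKM (0 h), 4.17 (4 h), 5.27 (8 h), 7.84 (12 h) and 19.1 (24 h). The 24 h library was 2.11 times as high as the 0 h library (1.89 to 2.35 by counting) and 4.58 times as high as the 4 h library (3.96 to 5.32). The 4 h difference of -0.96 was -0.27 after centring and -0.21 with the length trend removed. At 12 h the direction against 0 h depended on the scale, with -0.19 as deposited, 0.17 after centring and 0.17 with the length trend removed.

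Ccr1 shares its ligands with other receptors, and these differed in course. Ccl3 was at 5651 FPKM (4 h) and 200 (24 h), against 72.8 at 0 h. Ccl5 was at 4730 and 12779, against 22.0. Ccl9, a mouse ligand of Ccr1, was at 719 and 51.7, against 128, and Ccl6, another one, at 80.8 and 8.86, against 172. Ccl5 was at its highest level at 24 h, as was Ccr1, whereas Ccl3 and Ccl9 were highest at 4 h and Ccl6 at 0 h.

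Cx3cr1 (gene 13051; chromosome 9, 120048683 to 120068296), the receptor for fractalkine, was the scarcest of the 9 in every library with LPS. It had 1.54 FPKM (0 h), 0.25 (4 h), 0.37 (8 h), 0.89 (12 h) and 1.70 (24 h). The low values rest on about 21 reads at 4 h and 32 at 8 h, and their counting intervals of 0.15 to 0.38 and 0.25 to 0.52 FPKM overlap. The 0 h library was 6.16 times as high as the 4 h library by FPKM (3.87 to 10.3 by counting). For the 24 h library against the 0 h library the interval of the ratio, 0.87 to 1.41, includes no difference. Cx3cr1 overlaps Gm33858, an annotated long noncoding RNA gene that is not among the listed genes. Whether reads were counted by strand is not stated. The ligand Cx3cl1 was at 0.22 FPKM (0 h), 2.66 (4 h), 0.49 (8 h), 0.20 (12 h) and 0.07 (24 h), so it was highest in the library in which its receptor was lowest.

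Ccrl2 (gene 54199; chromosome 9, 111054834 to 111057518) was the most abundant of the 9 at 4 and 8 h. It had 20.5 FPKM (0 h), 493 (4 h), 376 (8 h), 261 (12 h) and 77.3 (24 h). The 4 libraries with LPS were all above the 0 h library, and the level was lower in each one than in the one before. The 4 h library was 24.1 times as high as the 0 h library (22.6 to 25.7 by counting), and the 24 h library 3.77 times as high (3.51 to 4.06). It was the only member at its highest in the 4 h library. Its level at 12 h was 3.37 times that at 24 h, the largest step down among the 9 between neighbouring libraries with LPS.

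Cmklr1 (gene 14747; chromosome 5, 113612355 to 113650475), the signalling receptor for chemerin, was higher later and by less. It stood at 10.7 FPKM (0 h), 12.9 (4 h), 22.8 (8 h), 31.7 (12 h) and 29.0 (24 h). The 12 h library was 2.97 times as high as the 0 h library (2.70 to 3.27 by counting), and the 24 h library 2.72 times as high. At 4 h the ratio was 1.21 (1.08 to 1.35), and after centring the log2 difference was 0.95. The receptors for chemerin thus differed in timing, Ccrl2 being highest at 4 h and Cmklr1 at 12 h. Per length, Ccrl2 was the more abundant of this pair in all 5 libraries. Cmklr1 overlaps Gm15736, an annotated noncoding gene that is not among the listed genes. Values for Rarres2, which encodes chemerin, were not analysed here.

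Ccr7 (gene 12775; chromosome 11, 99144199 to 99155077) was the scarcest receptor at 0 h. It had 1.20 FPKM (0 h), 4.82 (4 h), 14.8 (8 h), 11.5 (12 h) and 9.13 (24 h). It was 4.02 times as high at 4 h as at 0 h (2.88 to 5.71 by counting) and 12.4 times as high at 8 h (9.09 to 17.2). The 0 h value rests on about 44 reads. At 8 h it stood at percentile 74.2 of the listed genes and at 0 h at percentile 27.0. Even at its highest it was far below Fpr2, which had 328 FPKM in the same library.

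Ccr7 is also a marker of mature dendritic cells. Of 14 genes on the dendritic cell list other than Ccr7, 12 were listed, and their summed level was 142 FPKM (4 h), 142 (8 h), 99.5 (12 h) and 52.1 (24 h), against 70.3 at 0 h. Fscn1, an actin-bundling protein of mature dendritic cells, had 29.9 FPKM at 8 h against 1.95 (0 h), and the chemokine gene Ccl22 had 34.7 against 0.71. Batf3 was lower, with 0.92 FPKM at 8 h against 4.14 at 0 h, as was Itgax, with 18.3 against 44.0. Flt3 and Zbtb46 stayed near 0. The part of dendritic cells in the Ccr7 values was not tested. Values for the Ccr7 ligands Ccl19 and Ccl21a were not analysed here.

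Fpr1 and Fpr2 had the largest folds of the 9. Fpr2 (gene 14289; chromosome 17, 17887824 to 17893952) stood at 2.43 FPKM (0 h), 163 (4 h), 328 (8 h), 317 (12 h) and 209 (24 h). Fpr1 (gene 14293; chromosome 17, 17876471 to 17883939) stood at 1.63 FPKM (0 h), 55.0 (4 h), 182 (8 h), 218 (12 h) and 186 (24 h). In each case the 4 libraries with LPS lay far above the 0 h library. Fpr2 was 67.1 times as high at 4 h as at 0 h (50.9 to 90.3 by counting) and 135 times as high at 8 h (103 to 182). Fpr1 was 33.7 times as high at 4 h (24.6 to 47.5) and 134 times as high at 12 h (98.2 to 188). The wide intervals come from the 0 h library, where the values rest on about 51 reads for Fpr2 and 40 for Fpr1. In rank Fpr1 stood at percentile 97.7 at 24 h against percentile 30.0 at 0 h.

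The formyl peptide receptor genes differed in timing. Fpr2 was highest at 8 h and Fpr1 at 12 h, although the levels at 8 and 12 h differed by less than 2-fold for each gene. The ratio of Fpr2 to Fpr1 by FPKM was 1.49 (0 h), 2.96 (4 h), 1.81 (8 h), 1.45 (12 h) and 1.12 (24 h). Fpr2 was thus listed above Fpr1 per length in every library, but at 0 h the counting intervals overlap (1.81 to 3.20 FPKM for Fpr2 and 1.16 to 2.22 for Fpr1). At 24 h Fpr2 was 1.28 times as high as at 4 h, and Fpr1 was 3.39 times as high. With libraries centred, the 24 h difference from 4 h was -0.13 for Fpr2 and 1.25 for Fpr1.

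These genes lie side by side on chromosome 17, 3884 bases apart, on opposite strands and with their starts facing each other. Reads of Fpr2 may be divided with close copies, since 37.2% of the 50-base words of its longest coding transcript in GENCODE M21 also occur in other genes, foremost Gm5966 and Fpr3. For Fpr1 this share was 0.08%. The Fpr2 levels are therefore uncertain in a way that the Fpr1 levels are not, and values for Gm5966 and Fpr3 were not analysed here. Among the other members the share was 2.27% for Ccr2 and at most 0.27% for the rest.

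Ligands of the formyl peptide receptors differed in direction. Saa3, an acute-phase serum amyloid of a family that can activate Fpr2, was at 2036 FPKM (4 h), 17416 (8 h), 24852 (12 h) and 40998 (24 h), against 18.7 at 0 h. At 24 h Saa1 was at 24.1 FPKM and Saa2 at 4.14, and both were listed at 0 at 0 h. Anxa1, a ligand linked to the resolution of inflammation, was at 598 FPKM (4 h), 417 (8 h), 127 (12 h) and 78.4 (24 h), against 568 at 0 h. Hebp1, the precursor of a peptide ligand, was at 7.46 FPKM (4 h) and 4.55 (24 h), against 39.99 at 0 h. Camp, another precursor, differed from 0 h by a log2 difference of 0.96 (4 h) and -1.05 (24 h). Serum amyloid transcripts were highest, and Anxa1 transcripts lowest, in the 24 h library.

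Neutrophils carry much Fpr1 and Fpr2, so their markers are set beside these values. Of 15 markers 13 were listed, and their summed level was 514 FPKM (4 h), 1446 (8 h), 1983 (12 h) and 1720 (24 h), against 377 at 0 h. From 8 h on most of this sum was Lcn2, which macrophages also make, with 1183 FPKM at 8 h and 1643 at 24 h against 17.6 at 0 h. At 0 h the largest were S100a9 with 167 FPKM and S100a8 with 117. Of the 11 markers over the filter, 2 passed the 2-fold threshold as higher at 24 h and 6 as lower, beside 11.3% and 14.5% of all genes. The higher ones were Lcn2 and Ly6g, which had 3.71 FPKM at 24 h against 0.12 (0 h). Ly6g thus passed the filter only through libraries with LPS. The granule gene Mmp8 stayed within 2-fold, with a log2 difference of 0.22. Among the lower ones, S100a9 was at 7.14 FPKM at 24 h against 167 at 0 h, Ngp at 0.28 against 35.1, and Mpo was listed at 0 at 24 h against 4.79 FPKM at 0 h. Cxcr2, the main chemokine receptor of neutrophils, was at 1.99 FPKM at 24 h against 3.25 at 0 h. At 4 h 1 of the 11 was higher by 2-fold or more, Lcn2 with 183 FPKM, and 2 were lower, Mpo and Mmp8, beside 12.2% and 38.1% of all genes. In that library S100a9 was at 159 FPKM and Ngp at 38.98, close to their 0 h levels. The part of neutrophils in the Fpr1 and Fpr2 values was not tested.

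**Figure D2:**
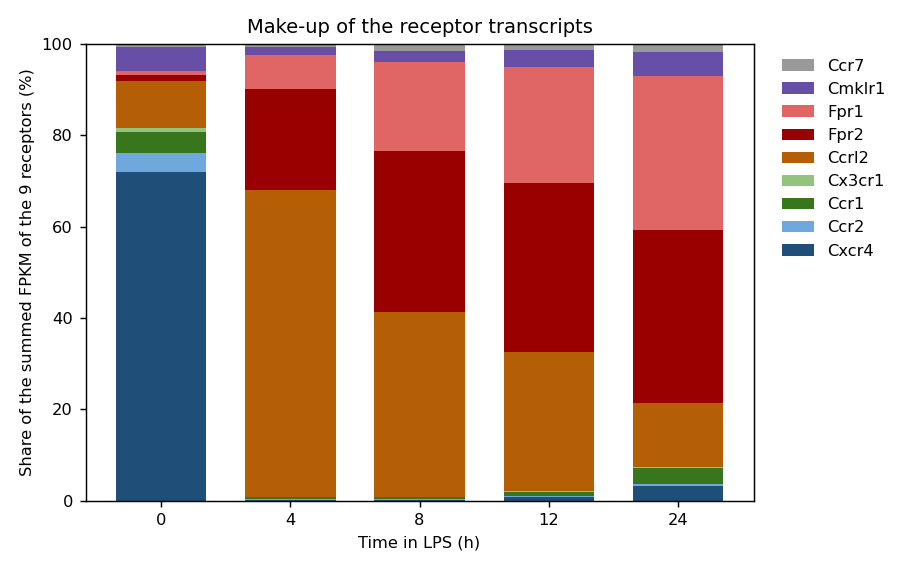
Share of the summed FPKM of the 9 receptors (vertical axis, percent) taken by each, at each time in LPS (horizontal axis, h), 1 library per bar. Cxcr4 makes up 72.0% at 0 h and Ccrl2 67.0% at 4 h, and at 24 h Fpr2 and Fpr1 make up 37.8% and 33.8%.

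Seen as 1 population of transcripts, the 9 receptors summed to 198 FPKM (0 h), 736 (4 h), 933 (8 h), 857 (12 h) and 552 (24 h). The leading gene was first Cxcr4 with 72.0% of the sum at 0 h, then Ccrl2 with 67.0% at 4 h and 40.4% at 8 h, and then Fpr2 with 37.0% at 12 h and 37.8% at 24 h. At 4 h Cxcr4 made up 0.18% of the sum, and at 24 h 3.34%. At 0 h the order was Cxcr4, Ccrl2, Cmklr1, Ccr1, Ccr2, Fpr2, Fpr1, Cx3cr1 and Ccr7. Cmklr1, Ccr1 and Ccr2 lay within 2-fold of each other there, and the counting intervals of Fpr1 (1.16 to 2.22 FPKM), Cx3cr1 (1.29 to 1.83) and Ccr7 (0.87 to 1.61) overlapped. At 24 h the order was Fpr2, Fpr1, Ccrl2, Cmklr1, Ccr1, Cxcr4, Ccr7, Ccr2 and Cx3cr1. Fpr2 and Fpr1 were within 2-fold of each other at 24 h, as were Ccr1 and Cxcr4, and Ccr2 and Cx3cr1.

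Between neighbouring later times few receptors moved by 2-fold. From 4 to 8 h, Fpr1 (1.71), Ccr7 (1.44) and Fpr2 (2.01 times by FPKM) were at least 2-fold higher at the later time, 3 of 9 against 5.23% of all genes, and 0 were lower, against 3.88%. Centring brought the log2 difference of Fpr2 to 0.85, under the threshold. From 8 to 12 h, Cxcr4 alone was higher (1.64), 1 of 9 against 2.58% of all genes, and 0 were lower, against 0.939%. From 12 to 24 h, Cxcr4 (1.26) and Ccr1 (1.19) were higher, 2 of 9 against 3.42% of all genes, and Ccrl2 (-1.74) was lower, 1 of 9 against 3.50%. With the libraries centred, Ccr1 was at 0.96 for that step. Of all genes at least 2-fold apart, the share that was higher at the later time was 57.4% for 4 to 8 h, 73.3% for 8 to 12 h and 49.4% for 12 to 24 h, and after centring 39.2%, 53.9% and 21.1%.

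**Figure D3:**
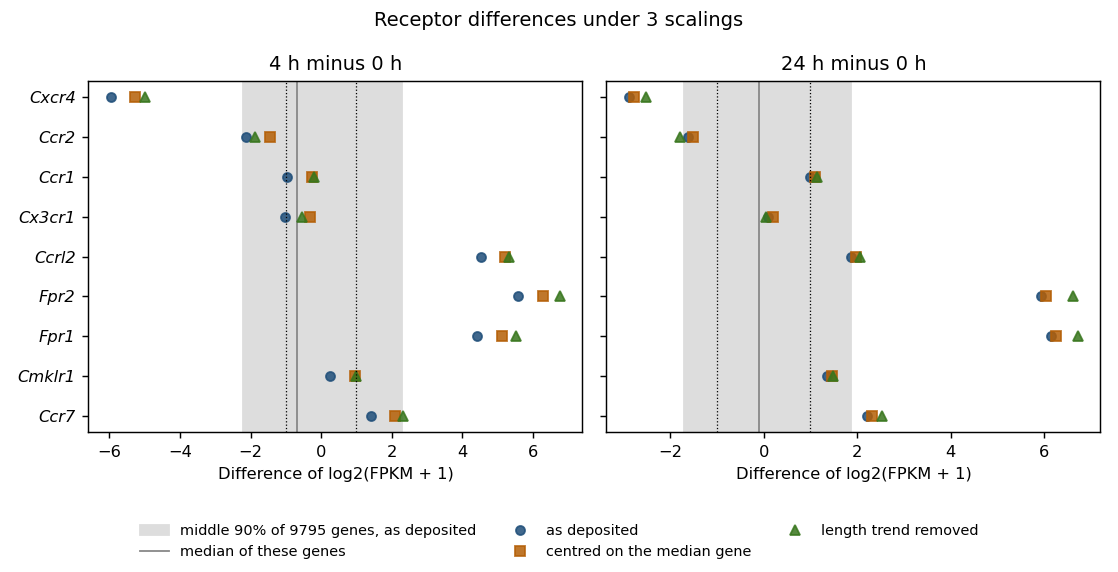
Difference of log2(FPKM + 1) from 0 h (horizontal axes) for each receptor at 4 h (left) and 24 h (right), as deposited (circles), after centring on the median gene (squares) and after removing the trend by transcript length (triangles), with dotted lines at a 2-fold difference. The grey band holds the middle 90% of 9795 genes on the scale as deposited, from -2.22 to 2.29 at 4 h and from -1.70 to 1.87 at 24 h. As deposited Cxcr4, Fpr1 and Fpr2 lie outside it at each time. Ccrl2 lies outside at 4 h and at its edge at 24 h, and Ccr7 lies outside at 24 h only (2.20).

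Centring and removal of the length trend moved the large differences without taking them across the 2-fold threshold. At 4 h Cxcr4 differed from 0 h by -5.96 as deposited, -5.26 after centring and -4.99 with the length trend removed. Fpr2 differed by 5.58, 6.28 and 6.76 on these scales, Ccrl2 by 4.52, 5.22 and 5.33, and Fpr1 by 4.41, 5.11 and 5.53. Ccr7 differed by 1.40, 2.10 and 2.33, and Ccr2 by -2.14, -1.44 and -1.86. At 24 h the corresponding values were -2.88, -2.77 and -2.51 for Cxcr4 and 6.15, 6.26 and 6.72 for Fpr1.

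Other receptors for attractants, 35 on a list, gave 23 in the table, of which 12 were over the filter. At 4 h 0 of these 12 were higher than at 0 h by 2-fold or more and 5 were lower, beside 12.2% and 38.1% of all genes, with a median difference of -0.55 beside -0.70 over all genes. The median was 0.14 after centring. At 24 h 1 passed as higher and 4 as lower, beside 11.3% and 14.5% of all genes, and the median was -0.47 beside -0.11. S1pr1, a receptor for the lipid sphingosine 1-phosphate, was at 1.49 FPKM (4 h) and 3.62 (24 h), against 15.1 at 0 h. C5ar2, a complement receptor, was at 0.47 and 0.64, against 5.48. Gpr35 was the one that was higher at 24 h, with 6.14 FPKM against 0.74, and S1pr2 was next, with 95.1 against 66.5. Being under 1 FPKM at 0 h, Gpr35 passed the filter only through libraries with LPS. The largest positive differences at 4 h were small, namely 0.30 for Ccr3 and 0.23 for Ptafr, the receptor for platelet-activating factor.

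**Figure D4:**
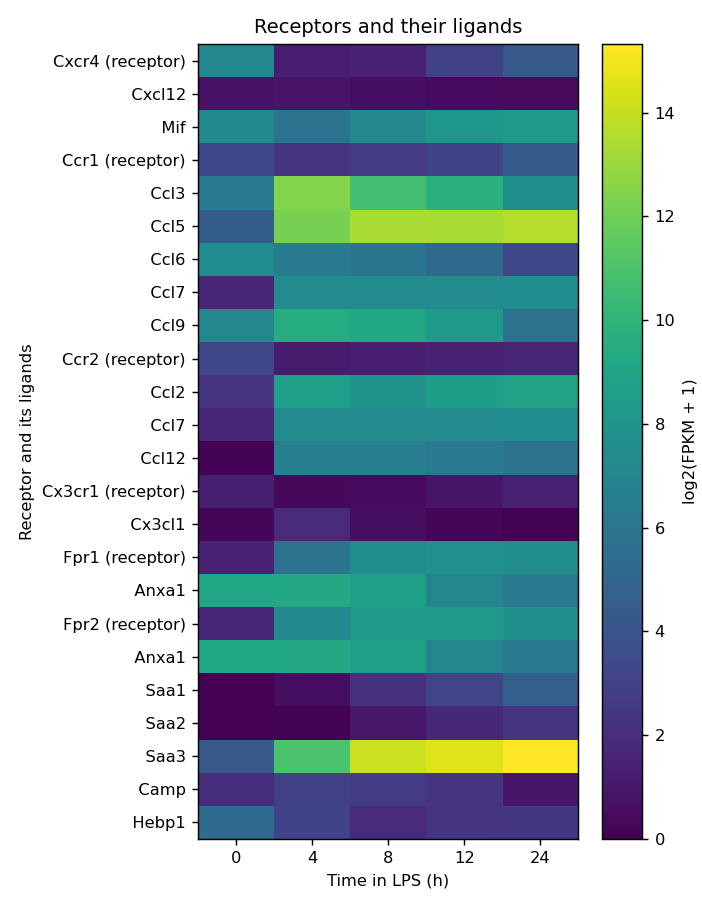
Colour gives log2(FPKM + 1) of receptors and, under each, the ligands with values (vertical axis) at each time in LPS (horizontal axis, h), 1 library per column. The brightest cell is Saa3 at 24 h with 15.3 on this scale, and in the 4 libraries with LPS Ccr2 is below its 0 h level while its ligands Ccl2, Ccl7 and Ccl12 are above theirs.

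Most ligand genes over the filter were higher after LPS. Of 21 ligands on the list 18 had values and 16 were over the filter. At 4 h 9 of the 16 were higher than at 0 h by 2-fold or more and 3 were lower (Ccl6, Mif and Hebp1), beside 12.2% and 38.1% of all genes, with a median of 2.88 beside -0.70 over all genes. At 24 h 11 of them passed as higher and 5 as lower, beside 11.3% and 14.5% of all genes, and the median was 2.19. The filter is a mean over all libraries. Ccl12 (0.11 FPKM at 0 h), Ccl8 (0.44), Saa1 (0) and Saa2 (0) passed it only through libraries with LPS. These genes are among the higher ones at 24 h, so the filter favoured that direction. Over all 18 ligands with values the median was 2.03 (4 h) and 1.73 (24 h). The list was also chosen with earlier results of these data known. The largest positive differences were 7.69 for Ccl5 and 6.69 for Saa3 at 4 h, and 11.02 for Saa3 and 9.12 for Ccl5 at 24 h. The most negative at 4 h were -2.28 for Hebp1 and -1.45 for Mif, and at 24 h -4.13 for Ccl6 and -2.88 for Hebp1. Ccl8 is on this list for its human counterpart, which binds CCR1 and CCR2, and in mouse it is known as a ligand of Ccr8. It was at 13.1 FPKM (4 h) and 19.03 (24 h), against 0.44 at 0 h.

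Genes that carry or end the receptor signal included some higher and some lower after LPS, in shares that at 24 h were near those of all genes. Of 41 on the list 40 were listed, and all 40 were over the filter. At 4 h 10 were higher than at 0 h by 2-fold or more and 13 lower, beside 12.2% and 38.1% of all genes, with a median of -0.26 as deposited and 0.43 after centring. At 24 h 5 of them passed as higher and 5 as lower, beside 11.3% and 14.5% of all genes, and the median was 0.01. Gnb4, a G protein beta subunit, was at 33.0 FPKM (4 h) and 1.57 (24 h), against 1.59 at 0 h. Prex1, an activator of Rac, was at 62.8 and 88.2, against 35.5. Both arrestin genes were lower at 4 h and within 2-fold at 24 h: Arrb1 was at 2.68 and 22.3 FPKM, against 32.2, and Arrb2 at 18.9 and 152, against 149. Rgs2, which shortens G protein signals, was at 2.40 FPKM (4 h) and 2.74 (24 h), against 36.3, and Rgs18, of the same family, at 4.91 and 1.93, against 13.5. Arrb2 was named after its values were seen.

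The genes with the most similar courses were found by the root mean square distance between the 4 differences from 0 h on the log2(FPKM + 1) scale, among genes that reached 10 FPKM. Nearest to Cxcr4 were the myeloid receptor gene Cd300lb (distance 0.37) and Arhgap19 (0.57). Nearest to Fpr1 were Cd38 (0.35), an enzyme that consumes NAD, and Slfn1 (0.44). Nearest to Fpr2 were Tgtp2 (0.19), an interferon-induced GTPase with close copies, and Clec4e (0.22), a lectin receptor for mycobacterial lipid, which had 1576 FPKM at 8 h against 12.7 at 0 h. Nearest to Ccrl2 were the chemokine gene Ccl22 (0.19) and the death ligand gene Tnfsf10 (0.27). Nearest to Ccr7 were Ric1 (0.10) and Parp11 (0.24), and to Cmklr1 Atp1b3 (0.16) and Tbc1d20 (0.16). Nearest to Ccr1 were Galnt2 (0.16) and Slc11a1 (0.20), an ion transporter of phagosomes, to Ccr2 Tmem147 (0.08) and Acads (0.09), and to Cx3cr1 Uhrf2 (0.02) and Kif2a (0.03). Among the 9 receptors themselves the closest pairs were Ccr1 with Cx3cr1 (0.48) and Fpr1 with Fpr2 (0.64). Receptors with small differences lie near many genes, so their small distances say little about likeness, and each course has only 4 differences from 1 shared library.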

How the data were processed

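RNA sequencing of mouse bone marrow-derived macrophages gave 1 library each at 0, 4, 8, 12 and 24 h of LPS, grouped by the time label. The authors deposited 1 table of FPKM values with 2 decimals, per the file headers. Bowtie2, RSEM and GRCm38 come from the submitters' processing notes, which give no version. For the annotation and filters, nothing is stated in the sources used here.

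The receptors and gene lists were chosen with earlier results of these data known. Differences used a pseudocount of 1 FPKM. With 1 library per time there was no test, and no standard error. The length trend was a lowess fit (fraction 0.3, statsmodels 0.14.6) on the longest coding transcript in GENCODE M21, known for 96.8% of genes over the filter. Work was done in Python 3.11.15 with pandas 2.3.3 and scipy 1.17.1. The counting step was tested on simulated data.

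Depth came from low values of genes with 1 transcript of 400 to 2500 nt, shortened by 40 nt. The step was searched from 8 to 60 M reads. At the best step 47.8% to 63.5% of 63 to 71 values in a library lay within 0.04 reads, or the rounding of 0.005 FPKM, of a whole read, against 20.2% to 21.3% from the tolerance alone. That share is higher for a step chosen as best, so the depth is an estimate and no count test was run.

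Named were the 9 receptors, their ligands, the 2 list members with the largest difference each way at 4 and 24 h, and the 2 nearest genes per receptor. A gene that this rule names is not reported here. Marker genes and Arrb2 were named after their values were seen. Alternatives were pseudocounts of 0.1 and 5 FPKM, no filter, centring and removal of the length trend.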

Additional observations from a re-analysis of the deposited data

How the results depend on the processing

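Of 144 values from 4 alternatives for the 36 differences between a receptor and its 0 h level, 142 kept their sign. The exceptions were Ccr1 at 12 h, with 0.17 after centring and 0.17 with the length trend removed. The count of receptors at least 2-fold lower at 24 h was 1 with a pseudocount of 5 FPKM, because Ccr2 no longer passed. Every other count of receptors higher or lower than at 0 h stayed within 1.5 times of its value, although Ccr7 and Cx3cr1 at 4 h and Cmklr1 at 8 h missed the threshold with a pseudocount of 5 FPKM, and Ccr1 at 4 h and Cx3cr1 at 8 h passed it, as lower, with one of 0.1, as did Ccr1 at 24 h as higher. After centring 21.5% of all genes were higher and 13.4% lower at 4 h, and the ligand list's median was 3.58, or 3.57 with a pseudocount of 0.1 FPKM and 2.03 with no filter. At 24 h that median was 3.59 with a pseudocount of 0.1 FPKM. Length reductions of 0 and 100 nt placed the depth at 18.0 to 20.4 M reads. No paired analysis was possible because each time point had 1 library.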
